A study of Mus musculus with 2 samples.

Results

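Mir204 and Mir211 are paralogous microRNA (miRNA) genes that lie in introns of genes for melastatin-type TRP cation channels, Mir204 in Trpm3 and Mir211 in Trpm1. They were chosen by gene identifier, from GENCODE M21 symbols, and make up 2 of the 1973 miRNA gene rows in each deposited table. Both rows were present in both tables. The libraries were made from forebrain total RNA of B6NCrl mouse embryos at 16.5 days, in a size range given as under 30. The labels name no treatment, mutation or second tissue, so all libraries form 1 group. Each of the 2 biological replicates came from a pool of embryos of both sexes. Replicate 2 pooled 41 embryos, and the number in replicate 1 is not given. Pooling averages over the single embryos of a library, and the p-values below set a difference between these 2 libraries against counting error only.

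A miRNA is cut from a hairpin precursor and guides repression of messenger RNAs that pair with its seed, bases 2 to 8 from the 5′ end. The 5p arms of miR-204 and miR-211 carry the same seed, so they are grouped as 1 family. miR-204 is known from epithelia of the eye and from the choroid plexus, the epithelium that secretes cerebrospinal fluid in the brain ventricles. miR-211 is known from melanocytes, where it is transcribed with Trpm1. TRPM3 is a channel opened by heat and neurosteroids, and TRPM1 is a channel of retinal bipolar cells and pigment cells.

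The mature sequences show why the genes can be compared and how little separates their reads. They are given 5′ to 3′ from the RefSeq table of GRCm38.p6, with the seed in capitals. Both genes were matched there.
miR-204-5p: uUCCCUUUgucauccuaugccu
miR-211-5p: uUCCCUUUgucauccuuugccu
miR-204-3p: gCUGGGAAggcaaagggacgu
miR-211-3p: gCAAGGACagcaaaggggggc
The 5p arms were identical at 21 of 22 positions. The only substitution was A17U, counted from 1 at the 5′ end with the base of miR-204 first, so the first 16 bases were the same. The 3p arms had different seeds and were identical at 14 of 21 positions. Of 1738 mature forms in the RefSeq table, 46 (2.65%) had a form of the same length from another gene 1 base away. The seed of the 5p arms, UCCCUUU, occurred in 3 genes of the table, and the other one was Mir7670 through its 3p form, uUCCCUUUcugaauaucuguaga. Mir7670 had 0 counts in both libraries. The seed of miR-204-3p was shared with miR-7684-5p, whose gene Mir7684 also had 0 counts in both. The seed of miR-211-3p was in no other gene of the table.

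The precursors are shown because the deposited count of a gene sums reads over the whole hairpin and does not tell the arms apart. Capitals mark the 5p and then the 3p mature form.
Mir204 precursor: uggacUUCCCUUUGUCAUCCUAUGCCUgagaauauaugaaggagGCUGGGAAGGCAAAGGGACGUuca
Mir211 precursor: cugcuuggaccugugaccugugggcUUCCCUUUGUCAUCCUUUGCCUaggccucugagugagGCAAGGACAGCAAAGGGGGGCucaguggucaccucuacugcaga
The annotated Mir204 precursor was 68 bases long and that of Mir211 106 bases. The arms were 17 bases apart in Mir204 and 15 in Mir211. In the predicted minimum free energy fold at 37 °C, 19 of 22 bases of the 5p form and 19 of 21 bases of the 3p form were paired in both precursors. The predicted energy was -33.7 kcal/mol for Mir204 and -57.6 kcal/mol for the longer Mir211. The longest stretch that either precursor shared with another of 2202 annotated miRNA genes, on either strand, was 17 bases, and for each the partner was the other member. A full-length mature read can therefore be placed on 1 of the 2 genes, while a read confined to those 17 bases cannot. Matches elsewhere in the genome were not analysed here.

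Mir204 (ENSMUSG00000065507.2 in the tables) lies on the plus strand at chr19:22750605-22750672, in GRCm38 coordinates of GENCODE M21. M21 holds a later version of this gene, ENSMUSG00000065507.3, so the interval counted in the tables may differ from it. Its host Trpm3 spans 856.37 kb on the same strand, and none of its annotated exons overlapped the miRNA gene. All 18 Trpm3 transcripts that span Mir204 had it in an intron. In the principal transcript, which has 26 exons, this was intron 6, 33.46 kb long, with the miRNA 17.43 kb after the upstream exon and 15.96 kb before the downstream one. Mir211 (ENSMUSG00000065585.1) lies on the plus strand at chr7:64205806-64205911, in Trpm1, which spans 115.94 kb. All 12 Trpm1 transcripts that span it had it in an intron, with no exon overlapping. In the principal transcript of 27 exons it was also in intron 6, which was 3.682 kb long there. The miRNA lay 1.212 kb after the upstream and 2.364 kb before the downstream exon. In the principal transcripts the paralogs thus share strand relative to the host and intron number, while the host intron of Mir204 was longer. Over all spanning transcripts that intron measured 16788 to 33462 bases for Mir204 and 3682 to 43843 bases for Mir211, so the ranges overlapped.

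**Figure D1:**
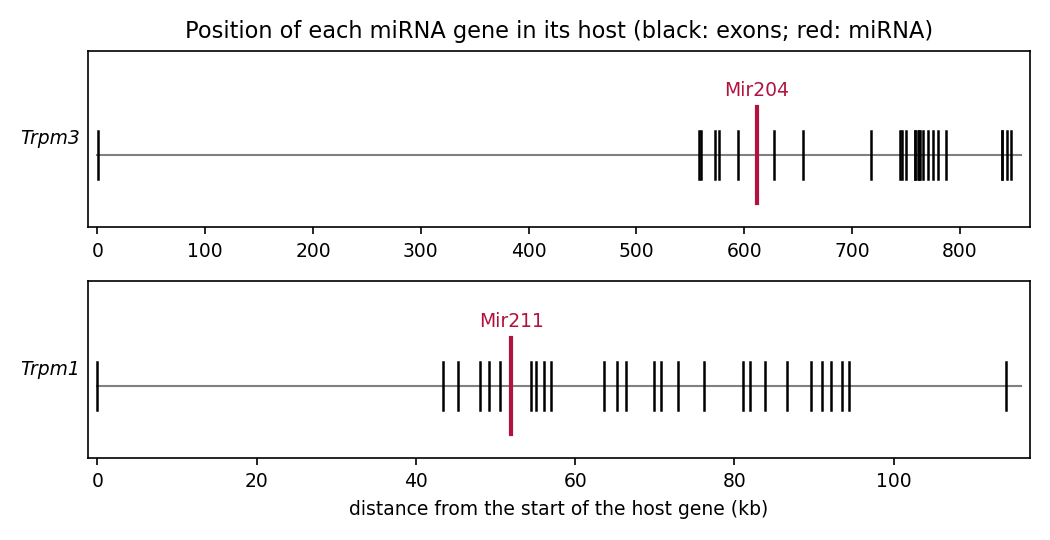
Map of the host genes Trpm3 (top) and Trpm1 (bottom), with distance from the host's start in kb on the x axis, the exons of the principal transcript as black lines and the miRNA gene as a red line. Mir204 lies 611.6 kb and Mir211 51.97 kb from the start of its host, each in intron 6 of the principal transcript, and the x axes differ in scale.

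No other measured miRNA gene lay on the host's strand inside a gene named as a TRP channel, by symbols beginning with Trp and a, c, m, p or v. The nearest measured miRNA gene to Mir204 was Mir1192, 398.8 kb away and outside Trpm3, with 0 counts in both libraries. Within the span of Trpm1, on its opposite strand, lay Mir6416, 44.07 kb from Mir211, also with 0 counts on either strand. Neither member had a measured neighbour that was counted within these distances.

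Mir204 was an abundant miRNA gene of the embryonic forebrain libraries and Mir211 a scarce one. The tables held 5060112 gene-strand counts in replicate 1 and 4158686 in replicate 2, and a count of 0 allows up to 0.593 and 0.721 CPM (counts per 1000000 gene-strand counts), taking 3 counts as the limit. Mir204 had 8449 counts in replicate 1 and 5142 in replicate 2. This was 1670 CPM in replicate 1, with an exact Clopper-Pearson 95% interval of 1634 to 1706, and 1236 CPM in replicate 2, with an interval of 1203 to 1271. Replicate 1 was the higher library, and the intervals did not overlap. The mean was 1453 ± 306 CPM (SD, n = 2), or 0.145% ± 0.0306 of the counts, which placed Mir204 at rank 80 of 1973 genes. Its rank was 77 in replicate 1 and 83 in replicate 2.

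Mir211 had 44 counts in replicate 1 and 21 in replicate 2. This was 8.70 CPM in replicate 1, with an interval of 6.32 to 11.7, and 5.05 CPM in replicate 2, with an interval of 3.13 to 7.72. Replicate 1 was again higher, but here the intervals overlapped. The mean was 6.87 ± 2.58 CPM (SD, n = 2), at rank 319. Both values exceeded the limit of 3 counts. Of the 703 genes with a count in either library, 384 had a lower mean than Mir211 and 623 a lower mean than Mir204. In bulk tissue, fewer cells of a type and less RNA per cell cannot be told apart, and this holds for every level given here. Intervals cover counting error only. Neither member had a read on the opposite strand in either library.

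Within the family, nearly all uniquely placed reads came from Mir204. It held 99.5% of the counts of the pair in replicate 1, with an exact interval of 99.3% to 99.6%, and 99.6% in replicate 2, with an interval of 99.4% to 99.7%. The ratio of Mir204 to Mir211 counts was 192 in replicate 1 and 245 in replicate 2, with intervals of 143 to 264 and 160 to 396. On the log2 scale, after adding 0.5 to each count, the ratio was 7.57 in replicate 1 and 7.90 in replicate 2, a mean of 7.74 ± 0.24 (SD, n = 2). A test of whether the ratio differed between the libraries gave p = 0.442 (Fisher's exact test on reads, two-sided), and the wide intervals come from the 65 counts of Mir211. Counts are compared per gene because the 5p forms are both 22 bases long. Per base of annotated precursor the log2 ratio was 8.38, since the precursors differ in length. Mir211 reads amounted to 0.521% of Mir204 reads in replicate 1 and 0.408% in replicate 2. The only difference between the 5p forms is 1 base, and whether any Mir211 counts were Mir204 reads with a changed base at that position was not tested.

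The values of both members were lower in replicate 2, and the difference was called for Mir204 only. With library totals scaled by TMM, edgeR's trimmed mean of M values, the log2 ratio of replicate 2 to replicate 1 was -0.29 for Mir204, with a counting interval of -0.34 to -0.24. An exact binomial test of its 2 counts gave an adjusted p of 2.39e-29, with Benjamini-Hochberg adjustment over 466 genes. For Mir211 it was -0.62, with an interval of -1.46 to 0.14 that includes 0, and the same exact test gave an adjusted p of 0.188. Both members met the minimum summed count of 10 for this test, and 1 of 2 was called. The test treats every read as independent and leaves variation between pools out. It called 45.3% of all tested genes, 21.9% as lower in replicate 2 and 23.4% as higher. Of the tested genes, 45.7% had a log2 difference smaller in size than that of Mir204 and 77.0% one smaller than that of Mir211. Among the 42 tested genes within 2-fold of the level of Mir204, itself included, 35 were called, and 20 had a larger difference. Among the 68 within 2-fold of the level of Mir211, itself included, 10 were called and 18 had a larger difference. With unscaled totals the log2 ratio was -0.43 for Mir204 and -0.77 for Mir211, while the median of all tested genes moved from 0.01 to -0.14. The calls were then 67 higher and 155 lower, against 109 and 102 with TMM.

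**Figure D2:**
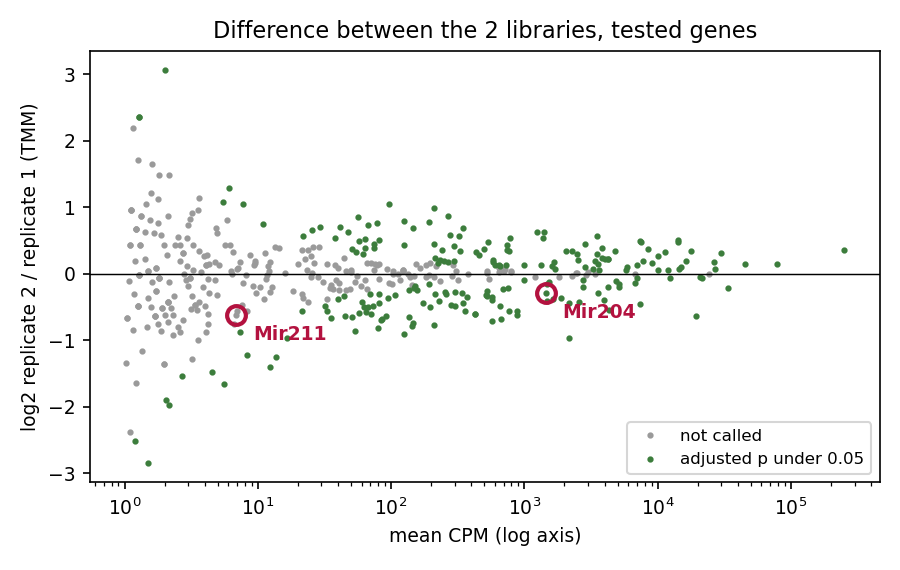
Log2 ratio of replicate 2 to replicate 1 (y axis, TMM scaling) against mean CPM (x axis, log scale) for the 466 tested miRNA genes, green where the adjusted p was under 0.05 and grey otherwise. Mir204 and Mir211, circled in red, lie below 0 at -0.29 and -0.62, within the band of other genes of their level.

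The tissue label was checked against miRNA markers of neural tissue in general, which do not single out the forebrain. Markers of other tissues were set beside the members. Of 10 neural marker genes 9 had a row, and together they held 22976 ± 479 CPM, led by Mir137, a regulator of neuronal maturation, at 12348 ± 1260 CPM. The genes of neuronal Mir124a lay between 1.07 and 4.27 CPM, and reads that map to several loci, 40.5% and 43.3% of all reads, were totalled apart from genes. Endothelial Mir126a stood at 17805 ± 1689 CPM. The 4 measured microglial and blood genes held 376 ± 2.96 gene-strand CPM together, which leaves out 926 and 941 opposite-strand reads of Mir142b, and 5 hindbrain and posterior genes 620 ± 193 CPM. Liver Mir122 was at 81.4 ± 23.3 CPM, and muscle Mir206 at 22.01 ± 4.58 CPM, with the other 3 measured muscle genes, which belong to multi-copy families, at 0. Some of these markers differed between the libraries in the direction of the members and others against it, by the exact binomial test. Of the 4 tested hindbrain and posterior genes 3 were called lower in replicate 2 and 0 higher, with a median log2 ratio of -0.56. Over all tested genes 21.9% were called lower and 23.4% higher. Mir122 was also lower, at -0.45 with an adjusted p of 0.000109. In the blood and microglial list Mir451a was lower at -0.50, while Mir223 was higher at 0.79 and Mir144 at 0.86. Mir126a and Mir206 were higher, at 0.34 and 0.57. Of the 9 neural genes 3 were called higher and 1 lower, against 23.4% and 21.9% of all tested genes. The part of such other cells in the levels of Mir204 and Mir211, or in their difference between the libraries, was not tested.

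Genes listed for the choroid plexus and multiciliated epithelium were detected beside Mir204. The 5 other than the members belong to the Mir34 and Mir449 families of ciliated cells. With the members inside it, the list is no separate measure of the choroid plexus. All 7 genes of that list, the members included, reached 5 counts in each library, and they summed to 4943 CPM in replicate 1 and 5079 CPM in replicate 2. Its sum was thus similar in both libraries in CPM, which are not scaled by TMM. Its 2 most abundant genes differed in opposite directions, in CPM and with TMM scaling. Mir204 made up 33.8% of the list's counts in replicate 1 and 24.3% in replicate 2. Mir449a, a miRNA of multiciliated cells that lies in Cdc20b, made up 52.0% and 62.4%. With TMM scaling Mir449a was higher in replicate 2 by 0.45 on the log2 scale (exact binomial test, adjusted p = 6.12e-137). Mir449a was thus at 1.54 times the count of Mir204 in replicate 1 and 2.56 times in replicate 2. Of the 7 genes, 1 was called higher in replicate 2 (Mir449a) and 1 lower (Mir204), where 23.4% and 21.9% of all tested genes were. Their median log2 ratio, also with TMM, was 0.08, against 0.01 over all tested genes.

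In order of mean level the list ran from Mir449a at 2869 ± 425 CPM through Mir204 to Mir34c at 650 ± 20.3 CPM, then Mir34b at 26.6 ± 0.148, Mir211, Mir449c at 3.57 ± 1.41 and Mir449b at 2.13 ± 0.626 CPM. Mir34b and Mir34c are also miRNAs of ciliated cells. The libraries of Mir204 did not overlap those of Mir449a above it or Mir34c below it, and those of Mir211 did not overlap those of Mir34b above it. Mir449c was lower than Mir211 in both libraries. In replicate 1 it was at 2.57 CPM, with an interval of 1.37 to 4.39 that lies below that of Mir211. In replicate 2 it was at 4.57 CPM, with an interval of 2.75 to 7.14 that overlaps that of Mir211.

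**Figure D3:**
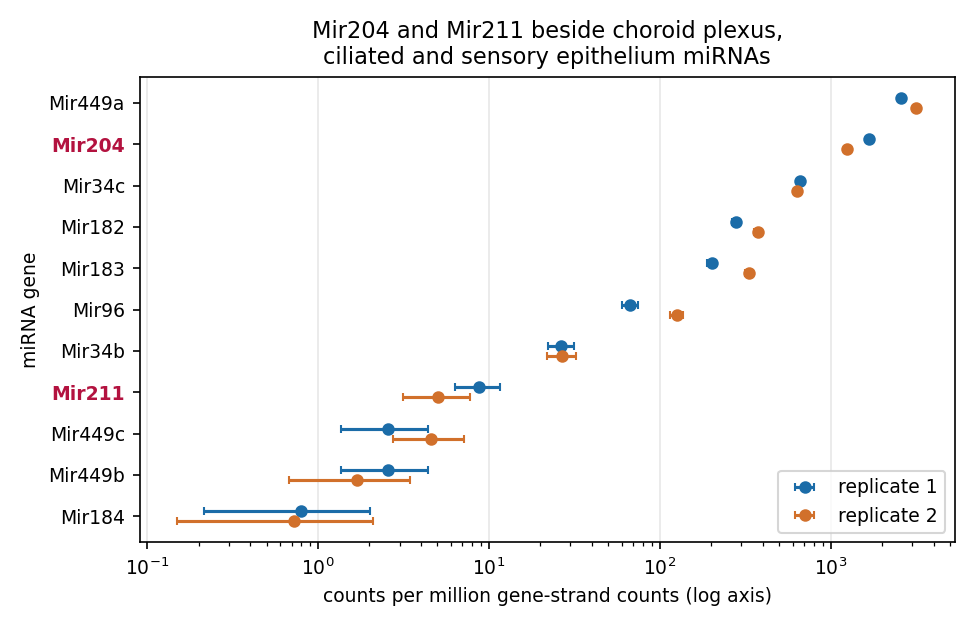
CPM on a log axis for the 7 genes of the choroid plexus and multiciliated list and 4 genes of the eye and sensory list, with replicate 1 in blue and replicate 2 in orange and bars for the exact 95% counting interval. Mir204 lies second from the top at 1670 and 1236 CPM, and Mir211 lies at 8.70 and 5.05 CPM between Mir34b and Mir449c.

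The eye gave another comparison, since miR-204 and miR-211 are both known from its pigmented epithelium. Mir184, a miRNA of lens and corneal epithelium, had 4 counts in replicate 1 and 3 in replicate 2, or 0.756 ± 0.0489 CPM. It was near the limit of 3 counts in both libraries. The cluster of Mir182, Mir183 and Mir96, expressed in photoreceptors and hair cells, was detected at 326 ± 67.5, 268 ± 93.9 and 96.4 ± 41.2 CPM. All 3 were higher in replicate 2, with log2 ratios of 0.57, 0.88 and 1.04 and adjusted p-values of 5.70e-26, 1.20e-48 and 3.38e-25 by the exact binomial test. They form 1 genomic cluster and are not independent observations, and 23.4% of all tested genes were called higher. Over the same libraries the ratios were -0.29 for Mir204 and -0.62 for Mir211.

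Among miRNA genes inside a protein-coding host on the same strand, Mir204 stood high. Of 854 such genes 429 had a count, and the median of those was 1.73 CPM. Mir204 was at rank 42 and Mir211 at rank 145 by mean CPM. In replicate 1 they were at 39 and 138, and in replicate 2 at 44 and 152. A level of 1000 CPM was reached by 44 of these genes and 100 CPM by 88, so Mir204 was near the lower end of the first group and Mir211 well outside the second. When the set was limited to the 650 genes that lie only in introns, the ranks were 35 and 114.

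**Figure D4:**
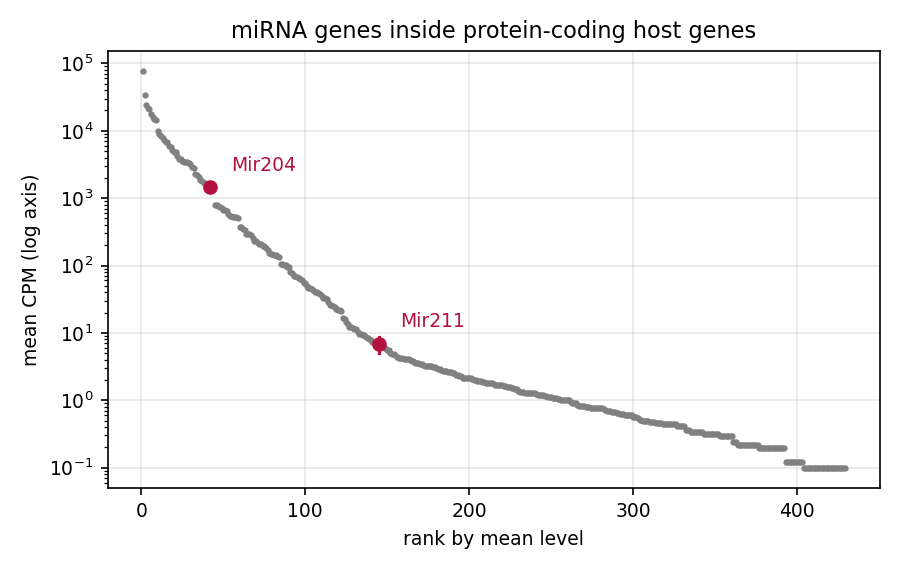
Mean CPM (y axis, log scale) against rank (x axis) for the 429 miRNA genes with a count inside protein-coding hosts, in grey, with Mir204 and Mir211 in red and a red line joining their replicate values. Mir204 lies at rank 42 and Mir211 at rank 145.

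Other families of miRNA genes housed in related host genes also had members with unequal gene counts. Mir107 in Pank1, a pantothenate kinase gene, was at 1820 ± 171 CPM, while Mir103-2 in Pank2 was at 45.6 ± 8.73 and Mir103-1 in Pank3 at 4.34 ± 0.0138 CPM. Mir26b in Ctdsp1, a phosphatase gene, was at 16226 ± 398 CPM, against 35.3 ± 5.40 for Mir26a-2 and 6.27 ± 0.361 for Mir26a-1. The log2 ratio of highest to lowest member was 8.67 ± 0.14 in the Pank group and 11.3 ± 0.11 in the Ctdsp group (SD, n = 2), against 7.74 ± 0.24 for Mir204 and Mir211. It was 0.88 ± 0.03 for Mir128-1 over Mir128-2 and 0.95 ± 0.45 for Mir218-2 over Mir218-1. It was 3.09 ± 0.15 for Mir208b over Mir499 in the cardiac myosin group, where Mir208a was at 2.01 ± 0.796 CPM.

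These ratios are not on an equal footing. The precursors of the Mir103, Mir107, Mir26a, Mir128 and Mir218 genes share stretches of 22 to 27 bases with another miRNA gene, so full-length mature reads of several of them can map to more than 1 locus and be left out of the gene counts. Mir204 and Mir211, at 17 shared bases, Mir26b at 12 and the myosin group at 13 to 14 had no such stretch. The list also held Mir139 in Pde2a, at 4238 ± 700 CPM, and Mir153 in Ptprn2, at 1884 ± 470 CPM, as single hosts. Of its 15 genes, all tested, 3 were called higher and 3 lower in replicate 2, where 23.4% and 21.9% of all tested genes were.

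**Figure D5:**
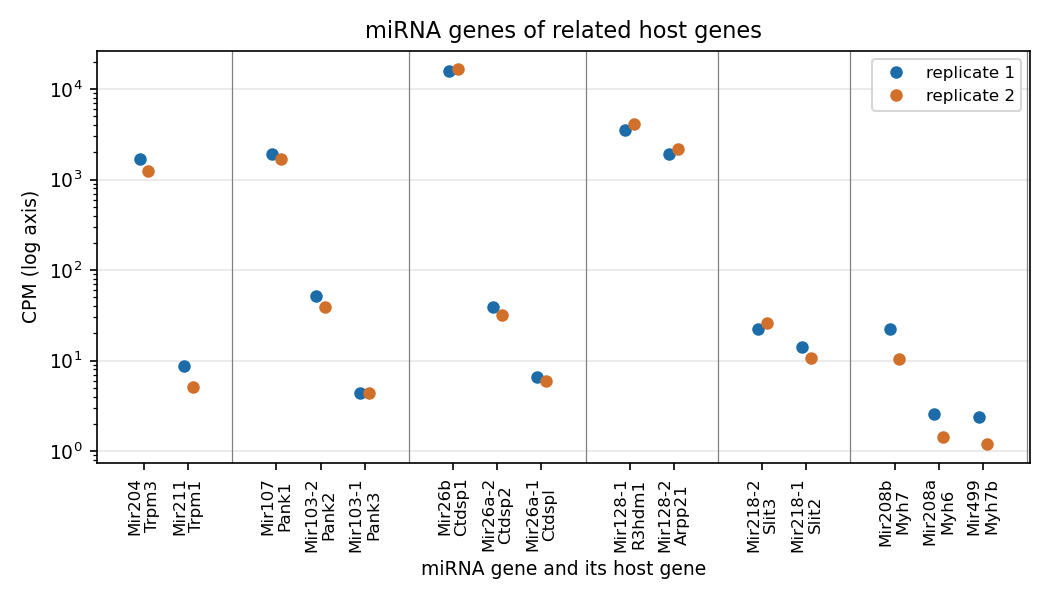
CPM on a log axis for miRNA genes grouped by related host genes, with the host written under each miRNA gene, replicate 1 in blue and replicate 2 in orange. In the Trpm group Mir204 lies at 1670 and 1236 CPM and Mir211 at 8.70 and 5.05 CPM. The Pank and Ctdsp groups also hold a high and a low member. There, counts of the Mir103, Mir107 and Mir26a genes can leave out reads that map to more than 1 locus.

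The genes most like each member in level over the 2 libraries were found by Euclidean distance in log2(CPM + 1). For Mir204 they were Mir431, at 1760 and 1191 CPM and a distance of 0.09, Mir1298, at 1616 and 1316 CPM and a distance of 0.10, and Mir379, at 1686 and 1401 CPM and a distance of 0.18. Mir1298 lies within Htr2c, the gene for a serotonin receptor. For Mir211 they were Mir7666, with 44 and 22 counts and a distance of 0.06, Mir1969, with 44 and 19 counts and a distance of 0.12, and Mir302c, with 50 and 20 counts and a distance of 0.18. With 2 libraries, such likeness says only that the levels were close. By mean CPM the neighbours of Mir204 in rank were Mir1298 at 1466 ± 212 and Mir429 at 1402 ± 328, and those of Mir211 were Mir3075 at 6.92 ± 0.270 and Mir1969 at 6.63 ± 2.92. The levels of each member and its neighbours overlapped over the 2 libraries, so that order was not resolved.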

How the data were processed

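MicroRNA sequencing of 2 libraries of embryonic mouse forebrain was analysed. Per the deposited file descriptions, the authors assigned reads on mm10 with the GENCODE M4 annotation. The sources used here name no aligner, counter or trimming step. The deposited tables hold raw read counts per gene without regard to strand and for each strand, and 4 rows of unassigned reads, which were left out of totals and tests. The third column of each table was taken as the gene strand. Of all reads, 40.5% and 43.3% mapped to several loci, 19.1% and 15.2% were unmapped and 2.50% and 2.82% lay outside genes. Symbols, positions and hosts came from GENCODE M21, sequences from RefSeq (GRCm38.p6). The precursor sequences of both members were identical in both sources.

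Levels are CPM of gene-strand counts. The difference between libraries was tested with a two-sided exact binomial test (scipy 1.17.1) on genes whose counts summed to 10 or more, with TMM factors from edgeR 4.0.16 (R 4.3.3), Benjamini-Hochberg adjustment and a threshold of 0.05. The test was checked on simulated counts with counting error only, where it recovered 75.6% of genes changed 2-fold and called 1.82% of the others. Variation between pools was not simulated, so the check does not cover it. DESeq2 1.42.0 gave size factors as an alternative. Structures were predicted with RNAfold (ViennaRNA 2.7.2). The members, lists and tests were chosen with earlier results of these data known. Named genes are the members, the choroid plexus, eye and related-host lists, genes with a shared seed, genes in TRP hosts and the 3 genes closest in level. Mir429, Mir3075 and the marker genes outside those lists were named in addition, Mir429 and Mir3075 after their values were seen.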

Additional observations from a re-analysis of the deposited data

How the results depend on the processing

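Of 25 alternative values that keep both libraries, 20 kept their direction and their side of the threshold or moved by less than the spread between the replicates. The 5 others follow from how each alternative is built. With all reads as denominator, unassigned ones included, Mir204 was at 545 and Mir211 at 2.57 CPM. Per base of annotated precursor, the log2 ratio of Mir204 to Mir211 was 8.38. Among miRNA genes of any same-strand host, non-coding ones included, the members were at ranks 61 and 218. With 1 replicate left out, which leaves the value of the other library and is no check of stability, Mir204 was at 1236 to 1670 CPM, Mir211 at 5.05 to 8.70 CPM and their log2 ratio at 7.57 to 7.90. Their ranks then lay between 39 and 44 for Mir204 and between 138 and 152 for Mir211. The difference between libraries was called for Mir204 under all 4 alternatives, with log2 ratios of -0.43 to -0.28, and for Mir211 under none, with adjusted p-values of 0.0883 to 0.263. The count of called genes lay between 207 and 225, out of differing numbers of tested genes. It was 207 of 703 with all genes with a count tested and 225 of 479 without regard to strand. The main setting called 211 of 466. No leave-one-out test of that difference can be made with 2 libraries. No paired analysis was possible because both libraries belong to 1 group. Depth limits Mir211, whose 65 counts leave a change of the size seen for Mir204 within its interval.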
